A study of Mus musculus with 50 samples.

Results

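Genes of the urea cycle and of amino acid breakdown were followed in the livers of pregnant CD-1 mice and their fetuses after gestational exposure to perfluorooctanoic acid (PFOA) or GenX. The set is a list of 41 genes named for their enzymatic or transport role. It was drawn up with earlier results of these data known. Of these, 38 had an annotated probe among the 30745 named genes of the array, and Gls2, Sds and Sdsl had none. The 38 comprise 8 genes of the urea cycle, 5 of glutamate metabolism and transamination, 5 of tyrosine breakdown, 5 of tryptophan breakdown, 3 of histidine breakdown, 7 of methionine and cysteine metabolism, 3 of serine, glycine and proline breakdown and 2 of branched-chain amino acid breakdown.

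The liver disposes of nitrogen from amino acids through the urea cycle, in which carbamoyl phosphate and ornithine enter inside the mitochondrion and urea is released in the cytosol by arginase. The enzymes lie mainly in hepatocytes around the portal vein, while cells around the central vein capture left-over ammonia as glutamine. Carbon skeletons are broken down along separate routes for tyrosine, tryptophan, histidine, methionine and the branched-chain amino acids. Several of these genes, such as Tat and Tdo2, are known to be switched on around birth. PFOA is a fully fluorinated fatty acid analogue, and GenX, an ether-containing perfluorinated acid, was introduced to replace it. Both are known to activate the nuclear receptor PPAR alpha in mouse liver.

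Dams were dosed daily by gavage from embryonic day 1.5 to 17.5, and livers were taken at gestational day 17.5. Each tissue had 5 groups: vehicle control, Low_PFOA (1 mg/kg/day), High_PFOA (5 mg/kg/day), Low_GenX (2 mg/kg/day) and High_GenX (10 mg/kg/day). Each maternal group had 5 arrays. Fetal groups also had 5, except High_PFOA with 6 and High_GenX with 4. Fetuses reached the chemicals through the dam and were described as female, from separate litters. Which fetus belongs to which dam is not given in the labels. CD-1 is an outbred strain, and no genetic change is given for any group. PFOA and GenX were given at different doses, and their values therefore stand side by side without a test. All values are log2 signals made with RMA, on which 1 unit is a doubling. Calls were made with limma's moderated test over all named genes where the p after Benjamini-Hochberg adjustment was under 0.05. Intervals are at 95%. Each p-value sets a difference against the spread between arrays within the groups of its fit, moderated over all genes. A gene is described as not called where it missed that threshold in the fit of all 5 groups of its tissue to the values as deposited, and other settings added some calls. Livers were measured in bulk, so fewer cells of a type and less RNA per cell cannot be told apart.

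All 7 fatty acid oxidation genes used as a check of exposure were higher in every exposed group except maternal Low_PFOA, where 2 of 7 were. Maternal Low_PFOA replicate 1 had a mean of 8.63 over these genes, which lay within the maternal control range of 8.22 to 9.23. Fetal control replicate 3 and fetal Low_GenX replicate 2 had Xist at 5.39 and 4.50 and the Y-linked Eif2s3y at 6.49 and 6.10, against the description as female. The source names of fetal High_PFOA replicate 6 and fetal Low_GenX replicate 5 give another group than their titles, and the titles were followed here. Hepatocyte markers averaged 12.09 to 12.47 in maternal and 11.45 to 11.82 in fetal liver. All 8 erythroid markers, all 8 granulocyte markers and all 4 measured fetal hepatocyte markers were higher in fetal than in maternal controls. In maternal controls 6 of the 8 erythroid and all 8 granulocyte markers were not above background. Background here is the 95th percentile of the negative control probes of the same array, which lay between 7.37 and 8.18.

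Promoter windows from RefSeq (build GRCm38.p6, 250 bases before to 50 after a start site) were found for 30 of the 41 listed genes. The start site used was not always the outer end of the gene. Those of Slc25a13, Got2 and Aadat are printed because these genes were called higher in 3 maternal exposures. That of Hal, which was called lower under both high doses in dams and under 3 exposures in fetuses, is printed for comparison. Capitals mark exact matches, on either strand, to the 5 motifs searched, and other bases are in lower case.
Slc25a13 (chr6:6217124-6217423, strand -): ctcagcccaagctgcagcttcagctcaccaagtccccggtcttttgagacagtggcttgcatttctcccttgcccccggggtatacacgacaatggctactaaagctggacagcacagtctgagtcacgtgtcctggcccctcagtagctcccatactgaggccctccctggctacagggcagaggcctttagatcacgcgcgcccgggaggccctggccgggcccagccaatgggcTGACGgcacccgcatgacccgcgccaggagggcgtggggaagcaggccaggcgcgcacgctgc
Got2 (chr8:95888352-95888651, strand -): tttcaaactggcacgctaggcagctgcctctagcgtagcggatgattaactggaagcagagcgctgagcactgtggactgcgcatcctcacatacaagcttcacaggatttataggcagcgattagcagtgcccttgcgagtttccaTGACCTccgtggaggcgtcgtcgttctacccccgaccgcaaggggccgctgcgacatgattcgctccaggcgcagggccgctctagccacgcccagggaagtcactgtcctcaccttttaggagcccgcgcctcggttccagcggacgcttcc
Aadat (chr8:60505874-60506173, strand +): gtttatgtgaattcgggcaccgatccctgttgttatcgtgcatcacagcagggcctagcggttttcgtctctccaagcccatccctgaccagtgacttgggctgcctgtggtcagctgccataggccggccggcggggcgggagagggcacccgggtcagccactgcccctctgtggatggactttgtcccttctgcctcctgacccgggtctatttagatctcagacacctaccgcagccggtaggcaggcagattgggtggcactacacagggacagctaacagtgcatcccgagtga
Hal (chr10:93488518-93488817, strand +): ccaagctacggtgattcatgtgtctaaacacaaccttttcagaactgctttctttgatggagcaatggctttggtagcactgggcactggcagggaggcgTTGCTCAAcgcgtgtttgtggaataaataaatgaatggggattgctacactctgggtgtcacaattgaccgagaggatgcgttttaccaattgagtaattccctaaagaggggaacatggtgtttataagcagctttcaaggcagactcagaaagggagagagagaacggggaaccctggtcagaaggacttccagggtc
The motifs were the nuclear receptor half-site AGGTCA, its direct repeat with 1 base between, the CRE half-site TGACG, the C/EBP site TTGCNNAA and the glucocorticoid receptor half-site TGTTCT. Slc25a13 held a CRE half-site, Got2 a nuclear receptor half-site on the opposite strand and Hal a C/EBP site, and none of the 5 was found in the Aadat window. The Aadat gene is annotated from 60505843, so its whole window lies inside the gene, and the bases before that position were not searched. Slc25a13 is annotated up to 6217304 on the minus strand, so its CRE half-site also lies inside the gene. Of all 32851 windows, 16.3% held the nuclear receptor half-site, 0.0396% the direct repeat, 20.8% the CRE half-site, 10.8% the C/EBP site and 19% the glucocorticoid receptor half-site. Among the 30 listed genes with a window, 11 held the nuclear receptor half-site and none the direct repeat. The CRE half-site was found in 4, the C/EBP site in 2 and the glucocorticoid receptor half-site in 4. These matches describe letters in a window and are not tests of binding.

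In unexposed animals, most amino acid genes were lower in fetal than in maternal liver. Of the 38 genes, 29 were lower, 1 was higher and 8 were not called, with a median difference of -1.05 against -0.13 over all genes. Over all named genes, 42.2% were called lower and 20% higher in this comparison. The higher gene was Slc25a13, the mitochondrial aspartate-glutamate carrier that supplies aspartate to the urea cycle. Its fetal controls read 10.01, 10.29, 10.46, 10.31 and 9.96 and its maternal controls 9.51, 9.82, 9.60, 9.69 and 9.83, a difference of 0.51 (0.28 to 0.75, adjusted p = 0.00022) without overlap.

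**Figure D1:**
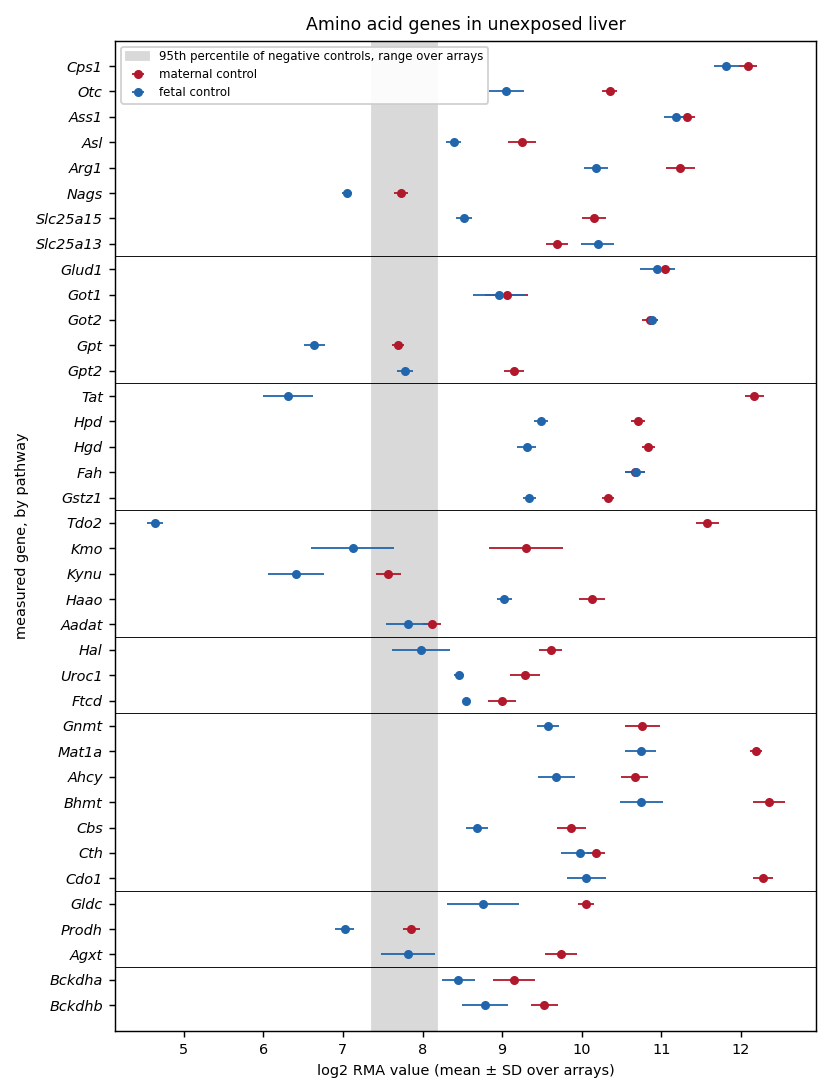
Mean log2 RMA value ± SD of each measured amino acid gene in maternal (red) and fetal (blue) control liver, 5 arrays each, grouped by pathway; the grey band is the range over arrays of the 95th percentile of negative controls. Tat and Tdo2 lie far apart between tissues, while Cps1, Ass1, Glud1, Got2 and Fah lie close together. Positions of different genes are not comparable, since probes differ.

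Tdo2 and Tat were far lower in fetal than in maternal controls. Tdo2, the tryptophan dioxygenase that commits tryptophan to breakdown, averaged 11.58 ± 0.14 (SD, n = 5) in maternal and 4.64 ± 0.10 (SD, n = 5) in fetal controls. Tat, the aminotransferase that starts tyrosine breakdown, averaged 12.17 ± 0.12 and 6.31 ± 0.31 (SD, n = 5 each). Every fetal control array lay at or below background for both. Maternal levels were therefore at least 13-fold higher for Tdo2 and at least 19-fold higher for Tat, where the fetal side of each bound is the dimmest signal above background. Kmo, the kynurenine monooxygenase, was at least 2.7-fold higher on the same terms, and the fetal controls of Nags, Gpt, Kynu and Prodh were also at or below background. Cdo1, which oxidises cysteine, was lower in fetal liver by 2.22 on the log2 scale (adjusted p = 7.3e-21). In the urea cycle, Otc was lower by 1.31, Arg1 by 1.05 and Asl by 0.86, all called, whereas Cps1 differed by -0.27 (-0.78 to 0.24, adjusted p = 0.35) and Ass1 by -0.13 (-0.39 to 0.12, adjusted p = 0.36). The other genes that were not called were Glud1, Got1, Got2, Fah, Aadat and Cth. Fetal liver also holds blood-forming cells, whose marker levels are given above, and their part in these differences was not tested.

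Exposure moved part of the set in each direction rather than the whole. In maternal liver, 7 of the 38 genes were higher and 8 lower under High_PFOA, 5 higher and none lower under Low_GenX, and 6 higher and 5 lower under High_GenX. Over all named genes the corresponding shares were 10.8% and 9.04%, 2.43% and 0.937%, and 7.55% and 6.22%. No member was called under Low_PFOA, where 4 had an unadjusted p under 0.05 and 0.0293% of all genes were higher and 0.00325% lower. Without maternal Low_PFOA replicate 1, Cbs was called in that comparison (-0.47, adjusted p = 0.037). The members' median change was -0.04 under Low_PFOA, -0.06 under High_PFOA, 0.08 under Low_GenX and -0.04 under High_GenX, and the median of all genes lay between -0.05 and 0 in these 4 comparisons.

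In fetal liver, 5 genes were higher and 1 lower under Low_PFOA, 4 higher and 6 lower under High_PFOA, and 7 higher and 11 lower under Low_GenX as well as under High_GenX. The shares over all named genes were 0.842% and 0.111%, 2.34% and 1.06%, 3.9% and 2.83%, and 4.42% and 4.85%. Aadat, Hgd and Got2 were called higher and Gpt2 lower under all 4 fetal exposures. In maternal liver, Aadat, Slc25a13, Kynu and Got2 were called higher under every exposure but Low_PFOA, and 22 genes were called under none. These comparisons share their control arrays within a tissue, and the shares of all genes with such patterns of calls were not computed. When quantile normalization was repeated on each tissue, the split was 3 higher and 12 lower for maternal High_PFOA, 3 and 1 for maternal Low_GenX, and 5 and 9 for maternal High_GenX. With arrays centred on their median, maternal High_GenX had 7 higher and 2 lower. For these settings the shares of all genes in each direction were not computed. The splits therefore do not separate a swing of the set from a swing of all genes.

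**Figure D2:**
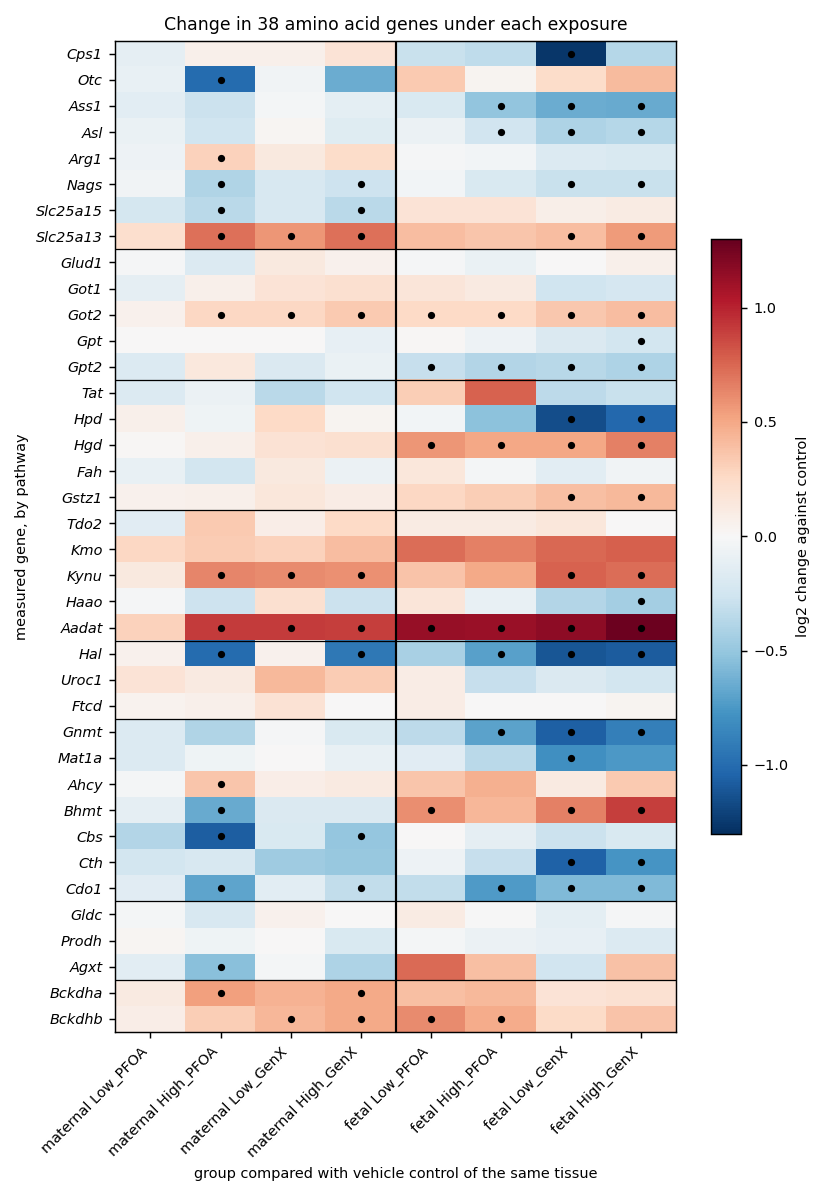
Log2 change against the control of the same tissue for the 38 measured genes (rows, by pathway) under 4 exposures in maternal and 4 in fetal liver (columns); black dots mark calls at adjusted p under 0.05. Aadat is red in all 8 columns and called in 7 of them, while Hal is blue and called under both high doses in dams and under 3 exposures in fetuses.

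The urea cycle did not move as a block. Otc, ornithine transcarbamylase, which joins carbamoyl phosphate to ornithine, read 10.25, 10.48, 10.28, 10.36 and 10.40 in maternal controls and 9.75, 9.97, 8.93, 8.4 and 9.72 under maternal High_PFOA. All High_PFOA arrays lay below all controls, and Otc fell by 1.00 (interval -1.48 to -0.52, adjusted p = 0.0032). Under maternal High_GenX its arrays read 10.07, 9.41, 9.19, 9.89 and 9.94, again below every control, but the difference of -0.65 (-1.13 to -0.18) was not called (adjusted p = 0.059). It was called at -0.79 (adjusted p = 0.019) with quantile normalization repeated and at -0.65 (adjusted p = 0.033) with dim genes filtered out. Fetal Otc was not called under any exposure, with differences between 0.04 and 0.41. The 4 fetal High_GenX arrays, at 9.41, 9.47, 9.52 and 9.43, lay above all controls at 8.98, 9.29, 9.23, 8.73 and 9.01 (0.41, adjusted p = 0.07), and this was called at 0.49 (adjusted p = 0.029) with arrays centred on their median.

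Cps1, carbamoyl phosphate synthetase, which starts the cycle, was not called in maternal liver, where its differences from control ran from -0.12 to 0.18 with group means of 11.97 to 12.27. In fetal liver it read 11.63, 11.95, 11.91, 11.95 and 11.68 in controls and 11.68, 8.85, 11.12, 11.07 and 10.10 under Low_GenX. Replicates 2 and 5 were the lowest, and they are the array at odds with its sex label and the array with the conflicting source name. The change was -1.26 (-1.94 to -0.57, adjusted p = 0.021). It was -0.83 (adjusted p = 0.038) without replicate 2 and -1.14 (adjusted p = 0.057) without replicate 5. Without both arrays of low Xist it was -0.81 (adjusted p = 0.065), and with source names followed in place of titles -1.01 (adjusted p = 0.14). Fitted on the compared groups alone, the difference was not called (adjusted p = 0.13). Under fetal High_GenX the difference was -0.37 (-1.09 to 0.36, adjusted p = 0.51), and under fetal Low_PFOA and High_PFOA it was -0.29 and -0.33 (adjusted p = 0.91 and 0.77).

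Ass1 and Asl, the argininosuccinate synthase and lyase that carry the second nitrogen atom into arginine, were called lower in fetal liver under 3 exposures. Fetal Ass1 read 11.23, 11.07, 11.04, 11.20 and 11.38 in controls, 10.58, 10.41, 10.49, 10.22 and 10.97 under Low_GenX, and 10.56, 10.11, 10.84 and 10.59 under High_GenX. All exposed arrays lay below all controls, with falls of 0.65 (adjusted p = 0.0019) and 0.66 (adjusted p = 0.0022). Under fetal High_PFOA the 6 arrays ran from 10.37 to 10.90 with a median of 10.74, also below the controls, and Ass1 fell by 0.51 (adjusted p = 0.015). That call was lost without fetal control replicate 5 (-0.46, adjusted p = 0.054). Under fetal Low_PFOA the difference was -0.20 (-0.46 to 0.06, adjusted p = 0.80). The Ass1 probe is also annotated to Gm5424, so the signal may be shared. Fetal Asl fell by 0.25 under High_PFOA (adjusted p = 0.049), 0.40 under Low_GenX (adjusted p = 0.0011) and 0.37 under High_GenX (adjusted p = 0.0031). The High_PFOA call of Asl held in 4 of 11 fits that left out 1 array. Maternal Ass1 and Asl differed from control by -0.28 to 0.03 and were not called. Under High_PFOA, Ass1 was called at -0.28 (adjusted p = 0.041) when fitted on the compared groups alone, and Asl at -0.42 (adjusted p = 0.00097) with quantile normalization repeated, beside -0.26 (adjusted p = 0.099) without that step. The same step gave Asl under maternal High_GenX at -0.30 (adjusted p = 0.019).

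Arg1, the arginase that releases urea, rose by 0.30 under maternal High_PFOA (0.12 to 0.48, adjusted p = 0.016), from 11.24 ± 0.18 to 11.54 ± 0.16 (SD, n = 5 each) with overlapping arrays, and the call was lost without maternal High_PFOA replicate 1 or with quantile normalization repeated (0.20). Under maternal High_GenX its difference was 0.24 (0.06 to 0.42, adjusted p = 0.062), which was called with dim genes filtered out (adjusted p = 0.037), with arrays centred on their median (0.31, adjusted p = 0.028) and with array weights (adjusted p = 0.043). In fetal liver its differences ran from -0.20 to -0.02 without a call.

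In dams the aspartate-glutamate carrier rose while the ornithine carrier and the gene for the activator of Cps1 fell. Slc25a13 rose from 9.51, 9.82, 9.60, 9.69 and 9.83 in maternal controls to 10.49, 10.31, 10.37, 10.58 and 10.33 under High_PFOA, to 10.37, 10.33, 10.38, 9.89 and 10.34 under Low_GenX and to 10.64, 10.15, 10.58, 10.35 and 10.32 under High_GenX. No exposed array of these groups overlapped a control. The rises were 0.72 (adjusted p = 1.3e-05), 0.57 (adjusted p = 0.0012) and 0.72 (adjusted p = 2.2e-05). In fetal liver it rose by 0.55 under High_GenX (adjusted p = 0.0079) and by 0.40 under Low_GenX (adjusted p = 0.049), and the latter call held in 2 of 10 fits that left out 1 array. Slc25a15, the mitochondrial ornithine carrier, fell by 0.35 under both maternal High_PFOA (adjusted p = 0.018) and High_GenX (adjusted p = 0.025). The first call was lost without maternal control replicate 1, and the second held in 6 of 10 fits that left out 1 array, and neither was called with arrays centred on their median. Nags makes N-acetylglutamate, the activator of Cps1. It read 7.64 to 7.84 in maternal controls and 7.21 to 7.48 under High_PFOA, where every array was at or below background, so that it was at least 1.2-fold lower (adjusted p = 0.00029). Nags fell by 0.27 under maternal High_GenX (adjusted p = 0.011), where 3 of 5 arrays were at or below background. Fetal Nags was at or below background in every group, and no fold is given for its calls.

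**Figure D3:**
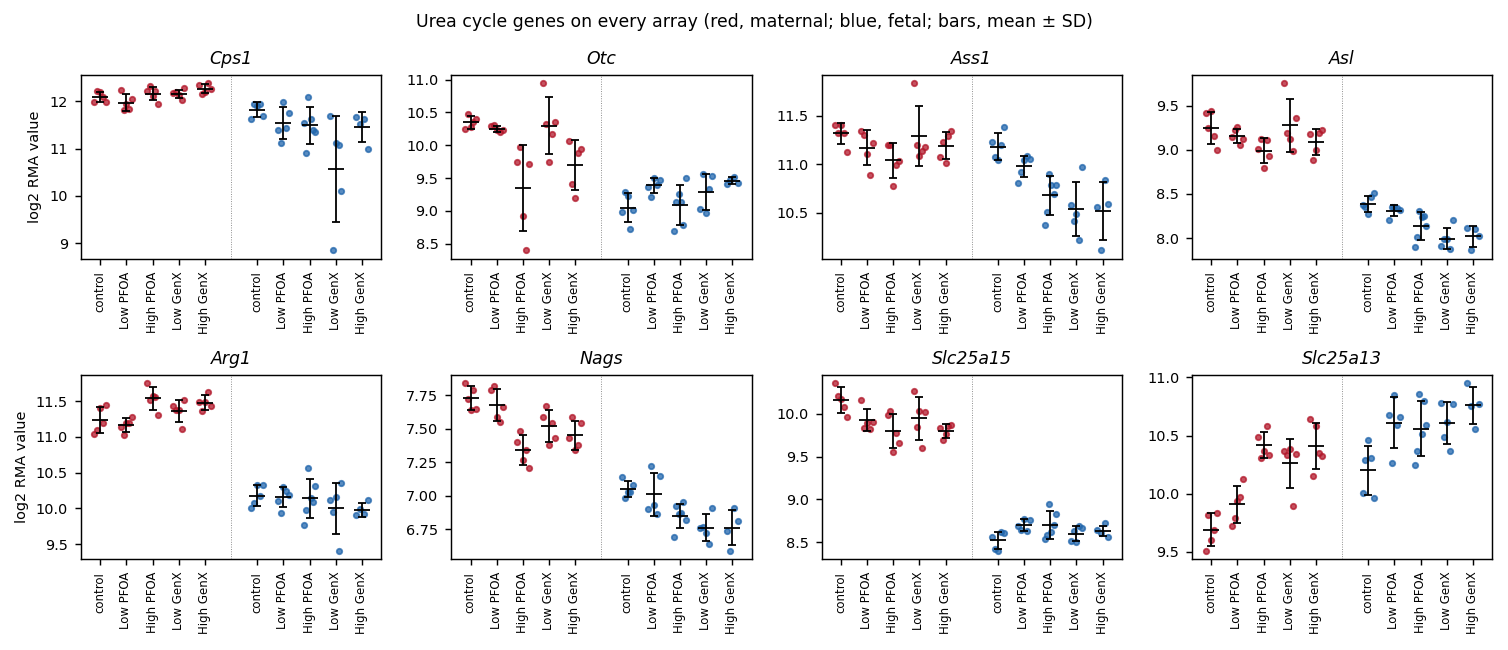
Log2 RMA value of the 8 measured urea cycle genes on every array, by group, with mean ± SD (black); red points are maternal and blue points fetal. Maternal Otc drops under High_PFOA with a wide spread of 8.4 to 9.97, maternal Slc25a13 lies above control in 3 exposed groups, and fetal Cps1 under Low_GenX spans 8.85 to 11.68.

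Among the aminotransferases that pass amino groups to and from glutamate, Got2 rose in both tissues and Gpt2 fell in fetal liver. Got2, the mitochondrial aspartate aminotransferase, rose by 0.27 under maternal High_PFOA (adjusted p = 0.0084), 0.27 under Low_GenX (adjusted p = 0.028) and 0.34 under High_GenX (adjusted p = 0.0018). In fetal liver it rose by 0.26 under Low_PFOA (adjusted p = 0.0087), 0.26 under High_PFOA (adjusted p = 0.0024), 0.35 under Low_GenX (adjusted p = 8.9e-05) and 0.40 under High_GenX (adjusted p = 2.9e-05). These changes were small, but in all 7 comparisons no exposed array overlapped a control, although the closest pair, under maternal Low_GenX, both rounded to 10.98. The fetal controls read 10.83, 10.87, 10.98, 10.95 and 10.83 and the fetal High_GenX arrays 11.34, 11.29, 11.29 and 11.26. The maternal Low_GenX call held in 4 of 10 fits that left out 1 array, and the maternal High_PFOA call was lost with quantile normalization repeated.

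Gpt2, the mitochondrial alanine aminotransferase, was called lower under all 4 fetal exposures. Its fetal controls read 7.69 to 7.94, with 4 of 5 arrays at or below background, and its exposed arrays 7.25 to 7.67, all at or below background. The adjusted p values were 0.016, 0.00032, 0.00098 and 0.0005 for Low_PFOA, High_PFOA, Low_GenX and High_GenX, and the signals do not give the size of the falls. Gpt was at or below background in every fetal array and was called lower under fetal High_GenX (adjusted p = 0.044), a call that held in 3 of 9 fits that left out 1 array. Glud1, glutamate dehydrogenase, whose probe is shared with Gm3219, differed from control by -0.18 to 0.13 and was not called under any exposure in either tissue, nor was Got1.

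In fetal tyrosine breakdown, Hpd fell while the next enzymes, Hgd and Gstz1, rose. Hpd, which converts the product of Tat, read 9.51, 9.44, 9.37, 9.54 and 9.60 in fetal controls, 8.34, 8.38, 8.55, 7.68 and 8.77 under Low_GenX and 8.48, 7.98, 8.41 and 9.04 under High_GenX. All exposed arrays lay below the controls, and Hpd fell by 1.15 (adjusted p = 0.0021) and 1.02 (adjusted p = 0.0079). Under fetal High_PFOA the difference of -0.53 was not called, and without replicate 3 it was -0.71 (adjusted p = 0.039). Hgd, homogentisate dioxygenase, the next enzyme, read 9.2, 9.43, 9.43, 9.17 and 9.32 in the same controls and rose by 0.57 under Low_PFOA (adjusted p = 0.013), 0.50 under High_PFOA (adjusted p = 0.010), 0.50 under Low_GenX (adjusted p = 0.010) and 0.65 under High_GenX (adjusted p = 0.0016). Its High_PFOA arrays, from 9.37 to 10.38 with a median of 9.77, overlapped the controls, and those of the other 3 exposures did not. The Low_PFOA call was lost without fetal Low_PFOA replicate 5. Gstz1, the maleylacetoacetate isomerase that follows Hgd, rose by 0.39 under fetal Low_GenX (adjusted p = 0.014) and 0.42 under High_GenX (adjusted p = 0.011), without overlap. The first call was lost without fetal Low_GenX replicate 5, and both with quantile normalization repeated. None of the 5 genes was called in maternal liver, where the differences of Hpd ran from -0.06 to 0.26 and those of Hgd from 0.02 to 0.21. Without maternal Low_GenX replicate 5, Tat was called lower in that group (-0.46, adjusted p = 0.032). Fah, the last enzyme of the route, was not called against control in either tissue, except under maternal High_PFOA with quantile normalization repeated (-0.41, adjusted p = 0.0067). Fetal Tat was at or below background on every array but High_PFOA replicate 3, which read 10.08 against 5.79 to 7.33 in the other 5 arrays of that group.

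The largest rise against control in the set was that of Aadat. Aadat encodes an aminotransferase acting on kynurenine and on the lysine product aminoadipate. It read 7.96, 8.19, 8.21, 8.08 and 8.18 in maternal controls, 9.25, 9.30, 8.88, 8.89 and 8.82 under High_PFOA, 10.16, 8.93, 8.77, 8.62 and 8.68 under Low_GenX, and 9.38, 8.62, 8.89, 9.13 and 9.11 under High_GenX. None of these exposed arrays overlapped the controls. The rises were 0.91 (0.48 to 1.33, adjusted p = 0.003), 0.91 (0.48 to 1.34, adjusted p = 0.012) and 0.90 (0.48 to 1.33, adjusted p = 0.0048). Maternal Low_GenX replicate 1 stood apart at 10.16, and without it the rise was 0.63 (adjusted p = 0.012). Fitted on the compared groups alone, the maternal Low_GenX difference in Aadat was not called (adjusted p = 0.08). Under maternal Low_PFOA the arrays read 7.97, 8.4, 8.52, 8.56 and 8.68, with replicate 1 among the controls.

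In fetal liver Aadat read 7.61, 8.12, 8.02, 7.90 and 7.45 in controls, 3 of them at or below background. Exposed arrays ran from 8.75 to 9.08 under Low_PFOA, from 8.69 to 9.36 (median 8.83) under High_PFOA, from 8.81 to 9.17 under Low_GenX and from 8.90 to 9.33 under High_GenX. No exposed array overlapped a control. The rises were 1.13 (adjusted p = 4.5e-06), 1.12 (adjusted p = 1.3e-06), 1.16 (adjusted p = 1.2e-06) and 1.27 (adjusted p = 7.2e-07). These calls were kept in every fit that left out 1 array and in each of the 11 alternative settings.

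Kynu, kynureninase, which splits kynurenine and its hydroxylated form, rose in dams by 0.63 under High_PFOA (adjusted p = 0.0015), 0.61 under Low_GenX (adjusted p = 0.008) and 0.59 under High_GenX (adjusted p = 0.0043). Its maternal controls read 7.36 to 7.76, with 3 of 5 arrays at or below background, and its High_PFOA arrays 8.05 to 8.34 did not overlap them. Fetal Kynu was called higher under both GenX doses (adjusted p = 0.0026 and 0.0059) but was at or below background on every fetal array, so no fold is given. Haao, which acts further down the route, fell by 0.44 under fetal High_GenX (adjusted p = 0.037), a call that held in 2 of 9 fits that left out 1 array. Maternal Haao was called lower only with quantile normalization repeated, under High_PFOA (-0.44, adjusted p = 0.014) and High_GenX (-0.41, adjusted p = 0.031). Kmo differed by 0.27 to 0.40 in maternal liver without a call. Its fetal controls were at or below background on every array, so no size is given there, and fetal Kmo was not called except in some other settings, such as under Low_GenX and High_GenX with dim genes filtered out (adjusted p = 0.035 and 0.037). Tdo2 was not called against control, but under maternal High_PFOA its difference of 0.34 was called with dim genes filtered out (adjusted p = 0.031) and, at 0.39, with arrays centred on their median (adjusted p = 0.041).

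The gene of the first step of histidine breakdown was called lower under some exposures in both tissues. Hal, histidine ammonia-lyase, read 9.49, 9.70, 9.82, 9.54 and 9.52 in maternal controls, 8.86, 9.06, 8.4, 8.43 and 8.32 under High_PFOA and 9.03, 8.39, 8.24, 8.89 and 8.88 under High_GenX. No array of either exposed group overlapped the controls, and Hal fell by 1.00 (-1.35 to -0.66, adjusted p = 0.00012) and 0.93 (-1.27 to -0.58, adjusted p = 0.00047). Under the low doses it was 9.68 ± 0.17 (Low_PFOA) and 9.68 ± 0.37 (Low_GenX, SD, n = 5 each) beside 9.61 ± 0.14 in controls. Fetal Hal read 7.59, 7.66, 8.19, 8.45 and 8.02 in controls, 6.85, 6.70, 7.09, 6.38 and 7.33 under Low_GenX and 6.85, 6.71, 6.92 and 7.13 under High_GenX. The GenX arrays all lay at or below background and below the controls, so Hal was at least 1.2-fold lower (adjusted p = 0.00043) and at least 1.1-fold lower (adjusted p = 0.00093). Under fetal High_PFOA it fell by 0.71 (adjusted p = 0.026), with arrays from 6.84 to 7.94 (median 7.13), and that call held in 5 of 11 fits that left out 1 array. Uroc1 and Ftcd, the later enzymes, were not called under any exposure in either tissue. For Uroc1 under maternal Low_GenX the difference of 0.42 was called with dim genes filtered out (adjusted p = 0.044), with the replicate block (adjusted p = 0.045) and on the compared groups alone (adjusted p = 0.036).

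Methionine and cysteine metabolism held 3 of the 8 maternal falls under High_PFOA, in Cbs, Cdo1 and Bhmt. Cbs, cystathionine beta-synthase, which condenses homocysteine with serine, read 10.15, 9.95, 9.66, 9.80 and 9.81 in maternal controls, 8.83, 9.11, 8.59, 8.75 and 8.73 under High_PFOA and 9.45, 9.25, 9.34, 9.42 and 9.42 under High_GenX. The exposed arrays lay below every control, and Cbs fell by 1.07 (-1.3 to -0.85, adjusted p = 1.4e-07) and 0.50 (-0.72 to -0.27, adjusted p = 0.0032). Under maternal Low_GenX the arrays ran from 9.56 to 9.80, within reach of the controls, and Cbs was not called. Fetal Cbs was not called under any exposure.

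Cdo1, cysteine dioxygenase, fell in both tissues. In dams it fell by 0.69 under High_PFOA (adjusted p = 6.2e-05) and by 0.32 under High_GenX (adjusted p = 0.049), and the latter call held in 3 of 10 fits that left out 1 array. In fetuses it fell by 0.74 under High_PFOA (adjusted p = 0.00013), 0.57 under Low_GenX (adjusted p = 0.0031) and 0.57 under High_GenX (adjusted p = 0.0042). Its fetal controls read 9.80 to 10.40, and the arrays of these 3 exposures, from 9.11 to 9.72, all lay lower.

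Bhmt, which remethylates homocysteine with betaine, was called lower in dams under High_PFOA and higher in fetuses under the other 3 exposures. Under fetal High_PFOA its difference of 0.43 was not called, except in some other settings such as with dim genes filtered out (adjusted p = 0.034). Maternal differences under the other exposures were not called, at -0.12 for Low_PFOA and -0.19 for each GenX dose. Its maternal controls read 12.11, 12.53, 12.57, 12.29 and 12.23 and its maternal High_PFOA arrays 11.62, 12.05, 11.50, 11.59 and 11.65, all lower, with a fall of 0.66 (adjusted p = 0.0013). Its fetal controls read 10.50, 10.81, 11.18, 10.58 and 10.68, and its fetal High_GenX arrays 11.65, 11.67, 11.51 and 11.77, all higher, with a rise of 0.90 (adjusted p = 0.0002). Rises of 0.66 under fetal Low_GenX (adjusted p = 0.0033) and 0.60 under fetal Low_PFOA (adjusted p = 0.026) came with overlapping arrays, and the Low_PFOA call held in 3 of 10 fits that left out 1 array. The brighter of the Bhmt probes, used here, carries a chromosome 18 identifier while the gene lies on chromosome 13. The other probe, with a chromosome 13 identifier, differed by -0.69 under maternal High_PFOA and by 0.96 under fetal High_GenX.

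In fetal liver Gnmt and Cth were called lower under both GenX doses and Mat1a under Low_GenX. Gnmt, glycine N-methyltransferase, which uses the methyl donor S-adenosylmethionine, read 9.58, 9.55, 9.81, 9.56 and 9.41 in fetal controls, 8.37, 9.07, 8.69, 7.73 and 8.77 under Low_GenX and 8.17, 8.55, 9.12 and 8.93 under High_GenX. All exposed arrays were lower, and Gnmt fell by 1.06 (adjusted p = 0.00057) and 0.89 (adjusted p = 0.0042). Under fetal High_PFOA it fell by 0.70 (adjusted p = 0.022), a call that was lost without fetal control replicate 3 or fetal High_PFOA replicate 1. Cth, cystathionine gamma-lyase, fell by 1.05 under fetal Low_GenX (adjusted p = 0.0016) and 0.77 under High_GenX (adjusted p = 0.023). The second call was lost without fetal control replicate 3 or High_GenX replicate 3, where the falls lay between 0.59 and 0.85. Mat1a, which makes S-adenosylmethionine, fell by 0.80 under fetal Low_GenX (adjusted p = 0.034), a call kept in 5 of 10 such fits, and differed by -0.75 under High_GenX (adjusted p = 0.051). Maternal Gnmt, Cth and Mat1a were not called. In other settings Gnmt was called lower under maternal High_PFOA with quantile normalization repeated (-0.54, adjusted p = 0.0055), with dim genes filtered out (-0.39, adjusted p = 0.035), with the replicate block (-0.39, adjusted p = 0.049) and without control replicate 5 or High_PFOA replicate 2. Cth was called lower under maternal High_GenX with quantile normalization repeated (-0.62, adjusted p = 0.034), with array weights (-0.50, adjusted p = 0.045), with the replicate block (-0.49, adjusted p = 0.047) and without High_GenX replicate 4. Under maternal Low_GenX, Cth was called lower with array weights (-0.57, adjusted p = 0.045) and without replicate 1 (-0.66, adjusted p = 0.027). Fetal Low_GenX replicate 4 was the lowest array for Gnmt, Cth, Mat1a and Hpd, at 7.73, 7.98, 8.98 and 7.68. Erythroid markers averaged from 9.90 to 10.62 in that group and from 9.82 to 10.20 in fetal controls, and their part in these falls was not tested. Without replicate 4, 17 members were called under fetal Low_GenX, 7 higher and 10 lower. Ahcy rose by 0.36 under maternal High_PFOA (adjusted p = 0.034), and this call held in 5 of 10 such fits.

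Of the branched-chain ketoacid dehydrogenase, the set holds the E1 subunits Bckdha and Bckdhb, each of which rose under 2 maternal exposures. Bckdhb, the E1 beta subunit, rose by 0.43 under maternal Low_GenX (adjusted p = 0.038) and 0.49 under maternal High_GenX (adjusted p = 0.0061), and Bckdha, the E1 alpha subunit, by 0.53 under maternal High_PFOA (adjusted p = 0.012) and 0.49 under maternal High_GenX (adjusted p = 0.026). Arrays overlapped the controls in all 4. With dim genes filtered out, Bckdhb was also called under maternal High_PFOA (0.32, adjusted p = 0.028). The same setting called Bckdha under maternal Low_GenX (0.45, adjusted p = 0.049). In fetal liver Bckdhb read 8.54, 9.02, 9.14, 8.74 and 8.48 in controls and 9.65, 9.15, 9.63, 9.18 and 9.34 under Low_PFOA, a rise of 0.61 (adjusted p = 0.012) without overlap, and it rose by 0.48 under High_PFOA (adjusted p = 0.022). The fetal Low_PFOA call held in 7 of 10 fits that left out 1 array, the fetal High_PFOA call in 5 of 11, and the maternal Low_GenX call in 3 of 10. The maternal High_GenX call of Bckdha held in 5 of 10 such fits, and both Bckdha calls and the maternal Low_GenX call of Bckdhb were lost with quantile normalization repeated. Among the serine, glycine and proline genes, Agxt, which detoxifies glyoxylate, fell by 0.54 under maternal High_PFOA (adjusted p = 0.0073). Under maternal High_GenX its difference of -0.40 was not called, but several other settings called it. Among them were quantile normalization repeated (-0.54, adjusted p = 0.0072) and the compared groups alone (-0.40, adjusted p = 0.016). Gldc and Prodh were not called under any exposure in either tissue. Fetal Prodh was at or below background in every group, and under High_GenX it was called lower without control replicate 2 or High_GenX replicate 3.

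**Figure D4:**
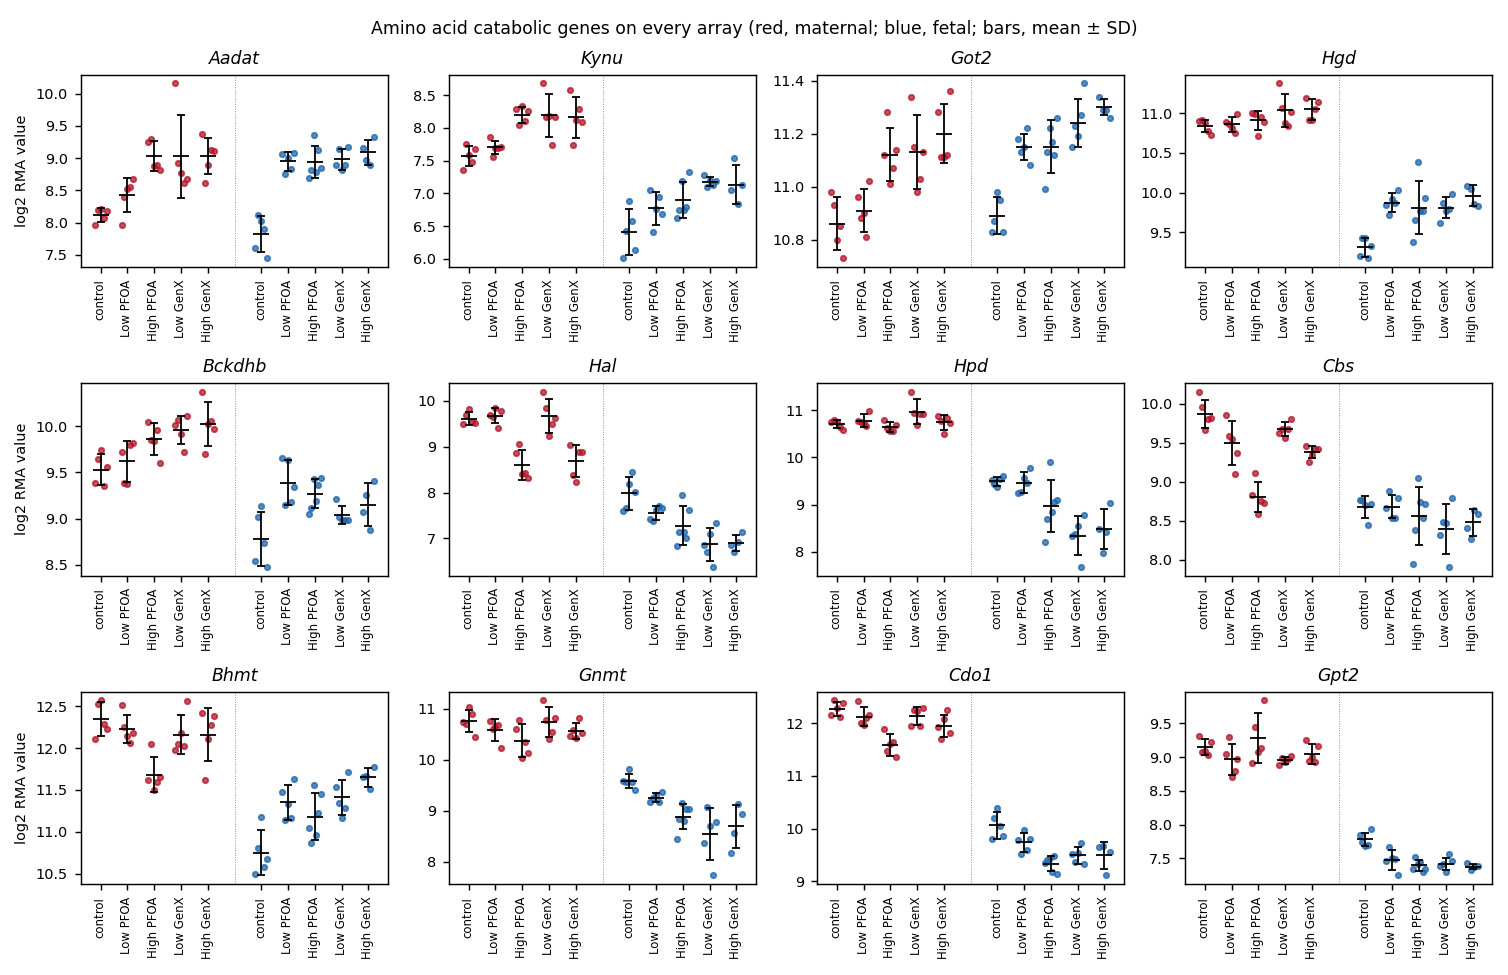
Log2 RMA value on every array for 12 amino acid catabolic genes, by group, with mean ± SD (black); red points are maternal and blue points fetal. Aadat and Got2 rise in both tissues, Hal falls under both high doses in dams and under GenX in fetuses, Cbs falls in dams, Hpd and Gnmt fall in fetuses, and Bhmt falls in dams under High_PFOA and rises in fetuses.

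Dose was compared within each compound. Maternal High_PFOA differed from Low_PFOA in 14 of the 38 genes, 7 higher and 7 lower, beside 10.2% and 8.52% of all genes. Hal was lower by 1.07 (adjusted p = 9.3e-05), Otc by 0.90 (adjusted p = 0.0087), Cbs by 0.69 (adjusted p = 9.3e-05) and Bhmt by 0.55 (adjusted p = 0.0077). Aadat was higher by 0.60 (adjusted p = 0.045), Slc25a13 by 0.50 (adjusted p = 0.0011), Kynu by 0.50 (adjusted p = 0.011) and Tdo2 by 0.49 (adjusted p = 0.0079). The Aadat call held in 3 of 10 fits that left out 1 array. It was lost with quantile normalization repeated (0.45, adjusted p = 0.1) and with the replicate block (adjusted p = 0.055). Without maternal Low_PFOA replicate 1 the difference in Aadat was 0.49 and not called (adjusted p = 0.11). Cps1 was then called higher by 0.26 (adjusted p = 0.022), beside 0.19 (adjusted p = 0.096) with it. Arg1 was higher by 0.37 (adjusted p = 0.0044), and Ass1 and Asl differed by -0.13 and -0.16 without a call. With quantile normalization repeated, 2 members were higher and 15 lower, again without shares of all genes in each direction.

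Maternal High_GenX differed from Low_GenX in 1 gene, Hal, which was lower by 0.99 (-1.34 to -0.65, adjusted p = 0.0055) without overlap, beside 0.176% of all genes higher and 0.0618% lower. The corresponding difference in Otc was -0.60 (-1.08 to -0.13, adjusted p = 0.45). No member was called between the fetal doses of either compound. Of all genes, 0.013% were higher and 0.0358% lower for fetal High_PFOA against Low_PFOA. For fetal High_GenX against Low_GenX limma called 0 genes, 0% in each direction, with 619 at an unadjusted p under 0.05. Intervals were wide, and for fetal Cps1 the GenX doses differed by 0.89 (0.17 to 1.62, adjusted p = 1).

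Whether an exposure acted differently in the tissues was tested as the fetal change minus the maternal change. The High_PFOA effect differed for 5 genes, 4 with a higher and 1 with a lower fetal change, beside 1.77% and 2.71% of all genes. The differences were 1.10 for Bhmt (adjusted p = 0.0002), 1.04 for Otc (adjusted p = 0.015), 0.96 for Cbs (adjusted p = 0.00088) and 0.54 for Slc25a15 (adjusted p = 0.0048). The lower one was Gpt2 (adjusted p = 0.022), for which no size is given, since its exposed fetal arrays were all at or below background. With quantile normalization repeated the split was 5 and 0, without shares of all genes for that setting. The Otc difference lost its call without maternal High_PFOA replicate 4, at 0.80, and that of Gpt2 without maternal High_PFOA replicate 2 or 5.

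The Low_GenX effect differed for 5 genes, 1 higher and 4 lower, beside 0.611% and 0.667% of all genes. The differences were 0.84 for Bhmt (adjusted p = 0.018), -1.41 for Hpd (adjusted p = 0.00063), -1.04 for Gnmt (adjusted p = 0.015) and -1.33 for Cps1 (adjusted p = 0.045). Hal also differed, with a lower fetal change (adjusted p = 0.0096), and no size is given because its fetal Low_GenX arrays were all at or below background. The Cps1 difference held in 4 of 20 fits that left out 1 array and was -0.90 (adjusted p = 0.072) without fetal Low_GenX replicate 2. The High_GenX effect differed for 4 genes, 3 higher and 1 lower, beside 0.735% and 1.3% of all genes, and these were Bhmt at 1.09 (adjusted p = 0.00086), Otc at 1.06 (adjusted p = 0.032), Slc25a15 at 0.47 (adjusted p = 0.043) and Hpd at -1.06 (adjusted p = 0.017). The Otc and Slc25a15 differences held in 8 and 6 of 19 such fits, and that of Hpd was lost without fetal High_GenX replicate 2. No member differed for Low_PFOA, where 0.13% of all genes were higher and 0.0488% lower.

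**Figure D5:**
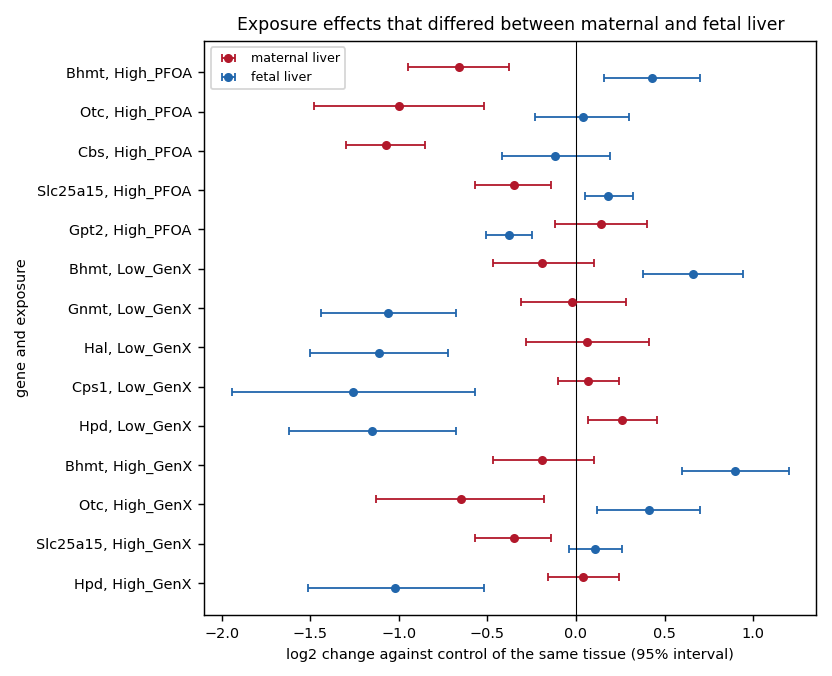
Log2 change against control in maternal (red) and fetal (blue) liver, with 95% intervals, for the 14 gene and exposure pairs whose effect differed between tissues. Bhmt lies on opposite sides of 0 in the tissues, Otc and Cbs fall in dams under High_PFOA, and Hpd, Hal, Gnmt and Cps1 fall in fetuses under Low_GenX. The exposed fetal signals of Gpt2 and Hal shown were at or below background, so their positions are not measured sizes.

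Another 76 measured genes of the same pathways were counted beside the set. Of these, 19 were higher and 13 lower under maternal High_PFOA, 18 and 1 under Low_GenX, 21 and 8 under High_GenX and none under Low_PFOA. In fetal liver 8 were higher and none lower under Low_PFOA, 8 and 5 under High_PFOA, 10 and 7 under Low_GenX, and 12 and 5 under High_GenX. The shares over all genes given above for each exposure apply here too, such as 10.8% higher and 9.04% lower under maternal High_PFOA. Of 17 other genes of branched-chain breakdown, 8 were higher under each of maternal High_PFOA, Low_GenX and High_GenX, and 3, 0 and 1 were lower. The 3 lower under High_PFOA were Dbt, the E2 subunit of the branched-chain ketoacid dehydrogenase (-0.56, adjusted p = 4e-05), Acadsb and Bcat2. The largest of these rises was in Ppm1k, the phosphatase that activates the branched-chain ketoacid dehydrogenase, at 1.76 under High_PFOA (adjusted p = 9.7e-07). Bckdk, the kinase that opposes this phosphatase, was also called higher under maternal High_PFOA and under fetal High_GenX. Of 12 further urea cycle and ammonia genes, Slc1a2, a glutamate transporter of cells around the central vein, was at least 2.1-fold lower under maternal High_PFOA (adjusted p = 2.8e-07), and the amino acid transporter Slc38a4 was higher by 1.7 (adjusted p = 1.1e-08). Of 14 regulators of amino acid catabolism, counted apart, 2 were higher and 2 lower under maternal High_PFOA, near the 10.8% and 9.04% of all genes. Under maternal Low_GenX 2 were higher and 0 lower, under High_GenX 2 and 1, and under Low_PFOA none was called. In fetal liver 1 was higher under Low_PFOA and 2 under each of the other exposures, and none was lower. The lower ones under maternal High_PFOA were Tsc22d3 (-0.29, adjusted p = 0.024) and Ppargc1a, which was at or below background in both groups. Creb3l3, a liver transcription factor active in fasting and the only one of the 14 called higher under all of these 7 exposures, rose by 0.51 under maternal High_PFOA (adjusted p = 7.1e-07) and by 1.04 under fetal High_GenX (adjusted p = 4.9e-06).

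The remaining lists are given for a few exposures each. Shares of all genes were 10.8% higher and 9.04% lower under maternal High_PFOA. They were 0.842% and 0.111% under fetal Low_PFOA and 4.42% and 4.85% under fetal High_GenX. Of 12 other methionine and cysteine genes, 2 were higher and 1 lower under maternal High_PFOA, with the largest rise in Csad, which makes hypotaurine from the product of Cdo1 (1.77, adjusted p = 3.3e-06), and 1 was higher and 1 lower under fetal High_GenX, where Suox, sulfite oxidase, was at least 1.4-fold higher (adjusted p = 4.7e-05). Of 12 other tryptophan and lysine genes, 3 were higher and 3 lower under maternal High_PFOA, and 1 was higher and 1 lower under fetal High_GenX. Under fetal Low_PFOA 2 were higher and none lower, and Kyat3, another kynurenine aminotransferase, rose by 1.05 (adjusted p = 0.0049). Of 15 other serine, glycine, proline and glyoxylate genes, 1 was higher and 3 lower under maternal High_PFOA and 5 higher and 1 lower under fetal High_GenX. Grhpr, glyoxylate reductase, rose by 0.70 (adjusted p = 4.5e-07) and 0.77 (adjusted p = 0.003) in these groups. Of 5 other phenylalanine and tyrosine genes, 2 were higher under maternal High_PFOA and none was called under fetal High_GenX. Of 4 histidine and one-carbon genes, 1 was lower in each of these groups, and under fetal High_GenX it was Aldh1l1, a folate dehydrogenase (-0.74, adjusted p = 0.00062). Of 17 other branched-chain genes, 4 were higher and 1 lower under fetal High_GenX, the latter being Dbt (-0.54, adjusted p = 0.00029).

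Marker levels moved in places beside these genes. Over all genes, 10.8% were higher and 9.04% lower under maternal High_PFOA, and 7.55% and 6.22% under High_GenX. The pericentral list shares Glul, Oat, Slc1a2 and Rhbg with the further urea cycle and ammonia genes, so the fall of Slc1a2 enters both counts. Of 8 pericentral hepatocyte markers, 4 were lower under maternal High_PFOA and 4 under High_GenX. Their array means ran from 8.41 to 9.0 and from 8.80 to 9.07, below the maternal control range of 9.38 to 9.53, and 3 of 8 markers were not above background in each exposed group against 2 of 8 in controls. Of 7 periportal markers outside the set, 1 was higher and 1 lower under High_PFOA and 2 were higher under High_GenX, with overlapping array means. Macrophage markers were higher for 4 of 8 genes under maternal High_PFOA and 2 of 8 under High_GenX, with array means of 7.0 to 7.99 and 7.31 to 7.97 beside 6.81 to 7.60 in controls. The part of these shifts in the maternal changes was not tested. Of the pericentral markers, 2 of 8 were also lower under fetal High_PFOA, Low_GenX and High_GenX, beside 1.06%, 2.83% and 4.85% of all genes. In these groups 5, 6 and 6 of the 8 were not above background, against 4 of 8 in fetal controls, so no size is given. In fetal liver, 1 of 8 erythroid markers was higher under Low_GenX, beside 3.9% of all genes, and none under the other exposures.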

How the data were processed

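Total RNA from 50 livers was measured on Affymetrix whole-transcript mouse arrays. Per the submitters' processing notes, which name RMA and mm10, the deposited values are log2 signals; software versions are not given in the sources used here. Arrays have no read depth, and their number per group (4 to 6) limits the precision.

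The table held 72688 features. Of 32750 probes with a gene annotation, 30604 had 1 symbol, 612 several symbols of 1 gene and 1534 several genes, and the last were left unnamed except for the shared probes of Ass1 and Glud1, which were kept as uncertain. Symbols were updated through gene IDs, and the brightest probe stood for each of 30745 genes. Background on an array was the 95th percentile of its 5222 negative controls, and a gene was dim in a group if no array exceeded it. At-least folds set the brighter group against the lowest signal above that background.

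Each tissue was fitted with all 5 groups in limma 3.58.1 (R 4.3.3), and differences between tissues with all 10 groups. Adjustment was over all named genes by Benjamini-Hochberg. The fits were tested on simulated data. Alternatives were variance moderation with an intensity trend, leaving out dim genes, repeated quantile normalization, median centring, mean of probes, array weights, a replicate block, the compared groups alone, arrays with conflicting labels or low Xist left out, source names followed, and each array left out in turn. Per comparison, full statistics were due for up to 4 rises and 4 falls among called members and for Cps1, Otc, Ass1, Asl and Arg1 whether or not called. Other called members were added after their values were seen. Other lists were given by counts with the largest change in a direction. The members, gene lists and tests were chosen with earlier results of these data known.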

Additional observations from a re-analysis of the deposited data

Results flagged for a closer look

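In 380 combinations of gene and group with 4 to 6 arrays, 21 had a highest or lowest array set apart from the others by Dixon's criterion, or 5.5%, where chance gives about 1 in 20. Maternal Low_GenX replicate 1 stood apart in 4 genes: Ass1 at 11.84 (others 11.08 to 11.2), Aadat at 10.16 (8.62 to 8.93), Ftcd at 9.74 (8.99 to 9.17) and Gstz1 at 10.69 (10.41 to 10.46). Fetal Low_GenX replicate 4 was lowest in 3: Mat1a at 8.98 (10.09 to 10.29), Cth at 7.98 (9.04 to 9.34) and Tdo2 at 4.6 (4.82 to 4.86), the last below background on all arrays.

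In other maternal groups, the arrays set apart were Slc25a15 in Low_PFOA replicate 1 at 10.16, Kmo in Low_PFOA replicate 3 at 9.1, Slc25a13 in Low_GenX replicate 4 at 9.89 and Bhmt in High_PFOA replicate 2 at 12.05. Maternal control replicate 1 was high for Ftcd at 9.3, and maternal control replicate 4 was low for Agxt at 9.39. In fetal liver, Tat in High_PFOA replicate 3 read 10.08, against 5.79 to 7.33 in the other arrays of that group. Fetal controls had Mat1a low in replicate 1 at 10.4 and Cbs low in replicate 4 at 8.44. Fetal Low_PFOA had Asl low in replicate 1 at 8.2 and Haao low in replicate 2 at 9.07. The remaining arrays were Bckdhb in fetal Low_GenX replicate 1 at 9.21, Gpt in fetal High_GenX replicate 2 at 6.25 and Cth in fetal High_GenX replicate 3 at 8.68.

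The effect of an exposure differed between the tissues, as fetal minus maternal change in limma's test, for 14 pairs of gene and exposure. Under High_PFOA the differences were 1.1 for Bhmt, 1.04 for Otc, 0.96 for Cbs, 0.54 for Slc25a15 and -0.52 for Gpt2. Under Low_GenX they were 0.84 for Bhmt, -1.41 for Hpd, -1.33 for Cps1, -1.18 for Hal and -1.04 for Gnmt. Under High_GenX they were 1.09 for Bhmt, 1.06 for Otc, 0.47 for Slc25a15 and -1.06 for Hpd. The values of Gpt2 under High_PFOA and of Hal under Low_GenX are differences of signals and not sizes, since the exposed fetal arrays of both were at or below background.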

How the results depend on the processing

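Counts of called genes of the set stayed within 1.5 times of those reported, apart from the following. Fitted on the compared groups alone, the count went from 1 to 0 for maternal High_GenX against Low_GenX, from 6 to 3 for fetal Low_PFOA, from 10 to 6 for fetal High_PFOA, from 0 to 1 for the Low_PFOA difference between tissues and from 5 to 3 for the High_PFOA difference. With each array left out in turn, counts ran from 0 to 1 for maternal Low_PFOA, 14 to 16 for High_PFOA, 3 to 5 for Low_GenX, 8 to 13 for High_GenX, 10 to 14 for High_PFOA against Low_PFOA and 1 to 1 for High_GenX against Low_GenX. In fetal liver they ran from 3 to 6, 6 to 11, 15 to 18 and 15 to 21 in the order Low_PFOA, High_PFOA, Low_GenX and High_GenX. Differences between tissues ran from 0 to 0, 4 to 7, 4 to 6 and 1 to 4 in that order, and control fetal against maternal stayed at 30. Whether the replicate numbers pair the samples cannot be decided from correlations between arrays, since paired arrays may correlate weakly. Correlations were over 0.1 for 10 of 50 same-numbered maternal pairs and 12 of 46 fetal pairs. The same held for 5 of 24 maternal and fetal pairs of the same treatment and number. With the replicate block the maternal counts were 0, 16, 6 and 13 and the fetal counts 6, 8, 17 and 15.

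Small uncalled values, from -0.10 to 0.07, changed sign in 15 results, and the cause was not tested. With quantile normalization repeated, maternal Cps1 under High_PFOA was -0.05, Asl under maternal Low_GenX -0.06, Otc under fetal High_PFOA -0.05, Arg1 between fetal GenX doses 0.01 and Asl in the Low_PFOA difference -0.01. With arrays centred, Ass1 under maternal Low_GenX was 0.02, Arg1 0.02 and 0.01 between fetal PFOA and GenX doses, Ass1 0.01 between fetal GenX doses, and Asl -0.01 and -0.03 in the Low_PFOA and High_PFOA differences. With array weights, Arg1 was 0.02 under fetal Low_PFOA, 0.03 under High_PFOA and 0.01 between PFOA doses, and Ass1 0.02 between GenX doses. With the replicate block, Otc under fetal High_PFOA was -0.04, and Ass1 and Arg1 between GenX doses 0.03 and 0.02. Otc was also -0.04 with conflicting-label arrays left out or source names followed, where Ass1 between GenX doses was 0.10 and 0.12 and Arg1 0.07 in both. With low-Xist arrays left out, Arg1 under fetal Low_PFOA was 0.01 and Asl -0.02 in both PFOA differences.

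With each array left out, such values under maternal Low_GenX ran from -0.09 to 0.10 for Asl, -0.21 to 0.09 for Otc and -0.17 to 0.02 for Ass1, and Ass1 between maternal GenX doses from -0.15 to 0.04. Fetal Arg1 ran from -0.07 to 0.03 under Low_PFOA, -0.12 to 0.04 under High_PFOA, -0.10 to 0.06 between PFOA doses and -0.16 to 0.07 between GenX doses. Otc under fetal High_PFOA ran from -0.04 to 0.12, Cps1 between fetal PFOA doses from -0.17 to 0.07 and Ass1 between GenX doses from -0.12 to 0.12. In the differences between tissues, Asl ran from -0.03 to 0.07 for Low_PFOA and -0.04 to 0.07 for High_PFOA, and Arg1 from -0.01 to 0.09 for Low_PFOA. Signals near background limit Nags, Gpt, Gpt2, Kynu and Hal in fetal liver.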
